A study of Mus musculus with 2 samples.

Results

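The genes of beta-adrenergic, cAMP and CREB signalling were described in 3T3-L1 adipocytes, either untreated or exposed to DF, a composition of several herbs. Members were chosen by gene symbol alone: the beta-adrenergic receptors (Adrb), Gnas, the adenylyl cyclases (Adcy), the phosphodiesterase genes of the Pde families, the subunits of protein kinase A (PKA), the A-kinase anchoring proteins (Akap), the exchange factors Rapgef3 and Rapgef4, the transcription factors Creb1, Crem, Atf1 and Atf2, and the coactivators Crtc1 to Crtc3, Crebbp and Ep300. This rule took 69 of the 24421 genes listed. The mouse line 3T3-L1 (its strain background labelled C57BL/6, at passages 10 to 13) was taken through adipogenesis in both groups with insulin (1 µg/mL), dexamethasone (0.25 µM) and 3-isobutyl-1-methylxanthine, or IBMX (0.5 mM), in 10% fetal bovine serum for 2 days, and with insulin alone thereafter. The control group received no treatment, and the DF group had DF in the medium up to harvest. The sources used here give neither the dose nor the harvest day. IBMX inhibits phosphodiesterases and thereby raises cAMP, so both cultures had been exposed to a direct stimulus of the pathway during induction. Each group holds 1 library of messenger RNA 3' ends, so no value has a replicate error, no test was made, and all differences describe these 2 libraries.

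In fat cells, catecholamines bind beta-adrenergic receptors, which act through the stimulatory G protein encoded by Gnas to switch on adenylyl cyclases. The second messenger cAMP releases the catalytic subunits of PKA from their regulatory subunits, and PKA phosphorylates the lipid droplet coat and the hormone-sensitive lipase, starting the release of fatty acids. PKA also phosphorylates CREB, which binds cAMP response elements and works with CRTC and the acetyltransferases CBP (Crebbp) and p300 (Ep300). Phosphodiesterases end the signal by breaking down cAMP, and anchoring proteins hold PKA at particular sites in the cell.

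All 8 adipocyte markers reached the level floor, with a summed linear value of 511882 in the control and 572281 with DF. Of 6 preadipocyte markers, Dlk1, Pdgfra and Ly6a were 2.73-fold, 2.54-fold and 3.01-fold lower with DF, Pdgfrb was at 10.51 and 10.58, and Cd34 and Dpp4 were listed at 0 in both. The summed linear value of the 6 was 100964 in the control and 37966 with DF, and the part of this difference in the results that follow was not tested. Dlk1, which made up most of both sums, ranked 11 in the control and 52 with DF. It lies among the 140 highest values, which are identical in both files when sorted, so its fold compares ranks. The adipocyte markers Lpl, Fabp4, Cfd, Adipoq and Cidec also lie there. The 5 macrophage, 3 endothelial and 3 brown adipocyte markers lay below the floor in both libraries, with summed linear values from 11.5 to 193. Ucp1, Kdr and Adgre1 were listed at 0 in both.

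The cAMP response element TGACGTCA and its shorter core TGACG, searched on both strands, were located in RefSeq promoters, windows of 300 bases on GRCm38.p6 that run from 250 bases before the annotated start to 50 after it. They are shown for 3 PKA subunit genes, which carry the largest summed level of the pathway's enzymes, and for the 2 phosphodiesterase genes that were higher with DF. Each of these genes had from 2 to 6 promoter entries, and the entry with the most matches is shown. Matches in the shown windows were thus favoured by the choice, and other entries of a gene can lack them. Adrb3, and Crtc2, Crem and Pde7a, which were lower with DF, had no promoter entry and were not searched. Capitals mark TGACGTCA in Prkar1a, and TGACG in the others, where it reads CGTCA when it lies on the opposite strand. The windows are chr11:109650699-109650998 (plus strand) for Prkar1a, chr12:32061228-32061527 (minus strand) for Prkar2b, chr8:83972728-83973027 (plus strand) for Prkaca, chr2:80038853-80039152 (minus strand) for Pde1a and chr7:101450270-101450569 (plus strand) for Pde2a.
Prkar1a: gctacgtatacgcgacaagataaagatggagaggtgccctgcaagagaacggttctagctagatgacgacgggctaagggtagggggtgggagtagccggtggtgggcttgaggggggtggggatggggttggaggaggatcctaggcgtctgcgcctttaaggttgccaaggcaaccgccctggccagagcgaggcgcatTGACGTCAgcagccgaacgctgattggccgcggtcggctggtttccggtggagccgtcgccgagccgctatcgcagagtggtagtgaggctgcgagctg
Prkar2b: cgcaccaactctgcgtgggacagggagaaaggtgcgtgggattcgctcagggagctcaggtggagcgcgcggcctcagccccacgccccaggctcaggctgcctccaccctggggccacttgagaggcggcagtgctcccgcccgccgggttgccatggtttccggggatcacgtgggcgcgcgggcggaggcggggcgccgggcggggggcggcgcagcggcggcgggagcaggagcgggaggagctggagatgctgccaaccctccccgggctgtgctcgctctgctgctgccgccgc
Prkaca: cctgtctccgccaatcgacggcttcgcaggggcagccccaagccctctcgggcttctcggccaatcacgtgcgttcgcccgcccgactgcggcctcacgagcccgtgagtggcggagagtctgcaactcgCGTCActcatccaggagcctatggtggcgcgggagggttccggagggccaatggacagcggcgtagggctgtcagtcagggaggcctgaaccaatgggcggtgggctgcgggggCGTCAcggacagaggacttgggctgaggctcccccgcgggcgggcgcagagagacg
Pde1a: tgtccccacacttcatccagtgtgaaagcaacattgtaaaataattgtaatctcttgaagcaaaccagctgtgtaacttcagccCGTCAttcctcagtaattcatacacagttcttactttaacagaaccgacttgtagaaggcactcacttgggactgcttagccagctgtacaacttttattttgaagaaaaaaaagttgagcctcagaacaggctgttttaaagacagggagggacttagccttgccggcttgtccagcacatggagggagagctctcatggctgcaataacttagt
Pde2a: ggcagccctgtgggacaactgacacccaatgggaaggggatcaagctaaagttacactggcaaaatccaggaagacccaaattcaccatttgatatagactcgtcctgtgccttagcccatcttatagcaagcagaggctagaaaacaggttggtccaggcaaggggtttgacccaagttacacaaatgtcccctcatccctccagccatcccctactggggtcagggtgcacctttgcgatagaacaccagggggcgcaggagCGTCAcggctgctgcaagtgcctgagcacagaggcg

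Prkar1a was the only member with the full palindrome among the 55 members that had a RefSeq promoter, a share of 1.82%, against 2.03% of all 27025 genes with a promoter. Its match starts at base 202 of the window. The core TGACG, which the palindrome contains, was found in Prkaca at bases 131 and 245, in Pde1a at base 85 and in Pde2a at base 265. In Prkar2b it was not among these letters. Among genes that reached the level floor and had a promoter, the palindrome was in 4.35% of 23 members and 3.74% of all 5240. Counted by promoter, 34.0% of the 50 promoters of these members held the core. This compares with 32.9% of the 6983 promoters of all genes that reached the floor, and 20.8% of all promoters. Counted by gene, where 1 matching promoter is enough, 13 of the 23 members held the core (56.5%), against 39.0% of the 5240 genes. The share thus depends on the unit counted. A match describes the letters and is not evidence of binding.

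Of the 69 members, 18 (26.1%) were listed at 0 in both libraries, against 44.3% of all genes listed. Another 8 were listed at 0 in 1 library, 12 were above 0 in both but below the level floor, and 31 were examined because they reached the floor in at least 1 library. The floor is the median of all non-zero values, 8.18 on the deposited log2 scale or 290.75 on the linear scale. Levels are given as deposited log2 values in the order control and DF, and folds compare linear values.

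Of the 31 examined members, 5 were higher with DF by at least 1.5-fold and 3 were lower, while 23 lay within that limit. Higher were the receptor Adrb3, the PKA regulatory subunit Prkar2b, the anchoring protein Akap9, and the phosphodiesterases Pde1a and Pde2a. Lower were the coactivator Crtc2, the transcription factor Crem and the phosphodiesterase Pde7a. The shares are 16.1% higher and 9.68% lower. Among all 6761 examined genes 10.2% were higher and 10.9% lower, so the share of lower members is near the background and the share of higher members exceeds it by few genes. With no level floor both shares lay below the background: of 43 members above 0 in both libraries, 14.0% were higher and 11.6% lower, against 18.3% and 15.9% of 11744 genes. At 2-fold only Adrb3 was higher and only Crtc2 lower, against 2.56% and 3.21% of all examined genes. The median difference of the members was -0.16 log2 units, with 14 above 0 and 17 below, and that of all examined genes was 0.01. Fewer cells of a type and less RNA per cell cannot be told apart in these cultures.

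**Figure D1:**
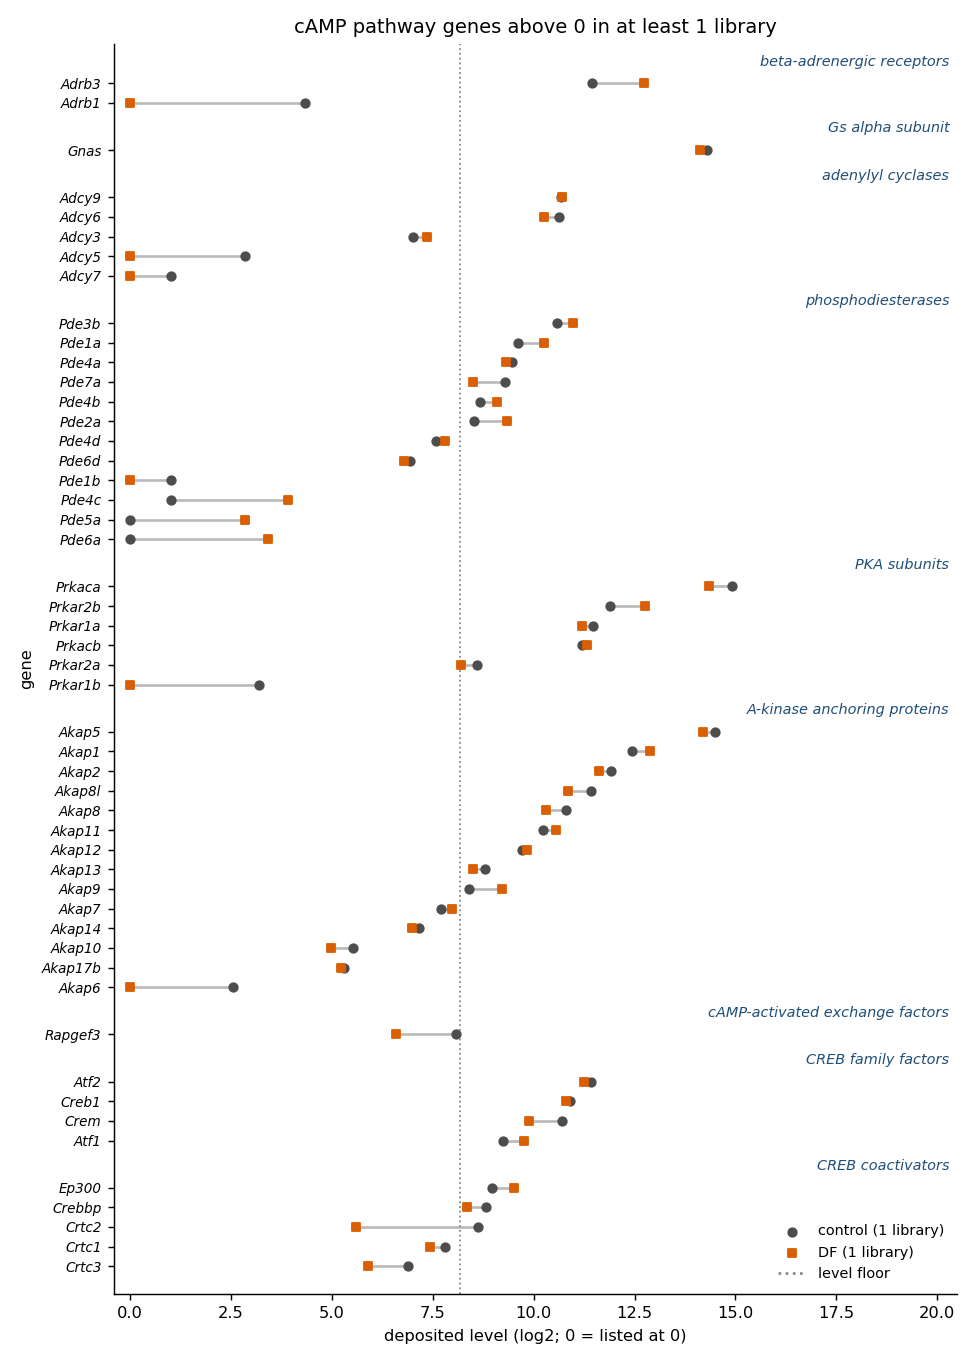
Deposited level (log2) of the members reported and above 0 in at least 1 library, by role, in the control library (circles) and the DF library (squares), with the level floor of 8.18 as a dotted line. Among examined members most pairs lie close together, while Adrb3 and Prkar2b are displaced to the right with DF and Crtc2 far to the left. Some members near the bottom of the scale are also far apart, such as Adrb1 (4.33 and 0) and Pde6a (0 and 3.41).

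Adrb3, the beta-adrenergic receptor typical of fat cells, was higher with DF. Adrb3 stood at 11.45 (control) and 12.73 (DF), or 2798 and 6776 on the linear scale, a 2.42-fold higher value with DF. At a mean level of 12 and over, 5.03% of 815 examined genes were higher by 1.5-fold and 6.26% lower, and of the 6 members there 2 were higher (Adrb3 and Prkar2b) and 0 lower. Adrb1, the receptor best known from the heart, was at 4.33 in the control and listed at 0 with DF. Adrb3 lies at chromosome 8, 27225776 to 27250616 on the minus strand (GENCODE vM21 on GRCm38), with no coding gene overlapping it.

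Messenger RNA levels of Gnas and of both examined cyclases lay within 1.5-fold. Gnas was at 14.29 and 14.12, among the 140 highest values, whose sorted order is identical in both files, so that its values compare ranks (108 and 122). The same holds for every level of 13.98 or more given here. At lower levels the sorted values nearly coincide between the files, so folds there largely compare ranks too. Of the 10 cyclases, Adcy9 and Adcy6 reached the floor. Adcy9 was at 10.68 and 10.70. Adcy6 was at 10.64 and 10.25, 1.31-fold lower and within the limit. Adcy3 was below the floor at 7.02 and 7.35, and the gene Cenpo covers its 3' end on the other strand. Adcy5 (2.83) and Adcy7 (1.00) were listed at 0 with DF, and Adcy1, Adcy2, Adcy4, Adcy8 and Adcy10 at 0 in both. The lowest non-zero level in the DF library was 2.13, against 0.32 in the control, so the control value of Adcy7 lies below anything the DF file can show. The summed linear value of the cyclases was 3365 and 3044.

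Of 6 examined phosphodiesterases, 2 were higher with DF and 1 lower by 1.5-fold, against 10.2% and 10.9% of all examined genes. Both higher ones accept cAMP as well as cGMP, and the lower one is specific for cAMP. Within the limit, the cAMP-specific Pde4b was 1.35-fold higher and Pde4a 1.12-fold lower, so a split by substrate is not shown. Pde3b, the insulin-activated enzyme of adipocytes and the most abundant of the family, was at 10.58 and 10.96, 1.31-fold higher and within the limit. Pde1a, a calcium- and calmodulin-dependent enzyme, was at 9.61 and 10.26, 1.58-fold higher, at a mean level of 9 to 10 where 9.15% of 1782 genes were higher by 1.5-fold. Pde2a, which cGMP stimulates, was at 8.52 and 9.34, 1.77-fold higher. These 3 were the only examined genes of the families Pde1, Pde2, Pde3, Pde10 and Pde11, which summed to linear values of 2673 (control) and 3873 (DF), 1.45-fold more with DF. Gm45837, a gene on the same strand, overlaps Pde2a, and the sources used here do not say how reads of overlapping genes were assigned.

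Of the cAMP-specific enzymes, Pde7a was 1.73-fold lower, at 9.30 and 8.51, or 630 and 364 on the linear scale. Pde4b was at 8.66 and 9.09, Pde4a at 9.46 and 9.31, and Pde4d, below the floor, at 7.57 and 7.79. The summed value of the Pde4, Pde7 and Pde8 genes was 1934 in the control and 1778 with DF. Pde7a contributed 32.6% of it in the control and 20.4% with DF, and Pde4b 20.9% and 30.6%. Pde4c was at 1.00 and 3.92, near the bottom of the scale. At a mean level under 9, where Pde7a and Pde2a lie, 17.1% of 1971 examined genes were higher by 1.5-fold and 16.9% lower, so differences of this size are common there.

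The remaining genes of the family were at or near 0. Pde5a (2.83) and Pde6a (3.41) were above 0 in the DF library only, and Pde1b (1.00) in the control only. Listed at 0 in both were Pde1c, Pde3a, Pde6b, Pde6c, Pde7b, Pde8a, Pde8b, Pde9a, Pde10a and Pde11a. Pde6d, at 6.93 and 6.79, matches the symbol rule but encodes a prenyl-binding protein rather than a phosphodiesterase, so it was left out of the sums.

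Of 5 examined PKA subunits, 1 (the regulatory Prkar2b) was higher by 1.5-fold and 0 were lower, against 10.2% and 10.9% of all examined genes. The catalytic Prkaca lay just short of the limit on the lower side. Prkaca, the main catalytic subunit, was at 14.90 and 14.35, 1.47-fold lower. It ranked 63 in the control and 103 with DF, so its fold comes from ranks. Prkar2b, the regulatory subunit typical of adipose tissue, was at 11.89 and 12.76, or 3794 and 6923 on the linear scale, 1.83-fold higher. The other catalytic subunit, Prkacb, was at 11.20 and 11.31. Prkar1a, the ubiquitous regulatory subunit, was at 11.48 and 11.20, and Prkar2a at 8.60 and 8.20. Prkar1b was at 3.19 (control) and listed at 0 with DF.

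On the linear scale, Prkar2b made up 53.9% of the regulatory subunits in the control and 72.3% with DF, and Prkar1a 40.5% and 24.6%. Catalytic subunits summed to 33022 and 23367, and regulatory subunits to 7044 and 9576. The ratio of regulatory to catalytic values was 0.213 in the control and 0.410 with DF. The assay reads 3' ends, and the sources used here do not state whether the values were divided by length. Ratios between genes therefore rest on an unstated scale, and none of these values measures protein. Prkar2b lies at chromosome 12, 31958476 to 32061296 on the minus strand, and Prkaca at chromosome 8, 83972993 to 83996443, plus strand.

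**Figure D2:**
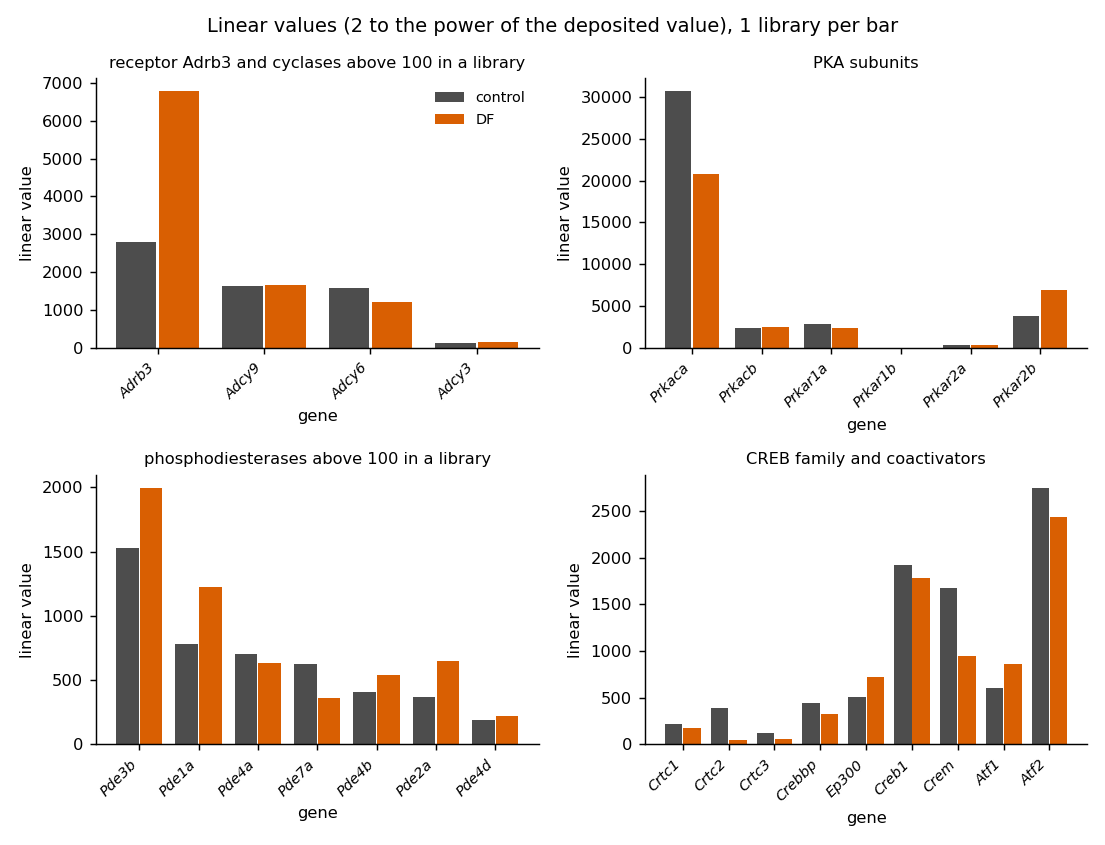
Linear values (2 raised to the deposited value) in the control library (grey bars) and the DF library (orange bars), 1 library per bar, for the receptor Adrb3 with the cyclases above 100 in a library, PKA subunits, phosphodiesterases above 100 in a library, and CREB factors with their coactivators. Adrb3 stands at 2798 and 6776, Prkaca at 30670 and 20830, Prkar2b at 3794 and 6923, and Crtc2 at 394 and 48.1.

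Of 9 examined anchoring proteins, 1 was higher by 1.5-fold and 0 were lower, against 10.2% and 10.9% of all examined genes. Akap5, which holds PKA and calcineurin at the plasma membrane, was the most abundant at 14.48 and 14.20, again among the 140 highest values. It made up 57.2% of the summed linear value of the 16 Akap genes in the control and 51.6% with DF. Akap1, the anchor of the outer mitochondrial membrane, was at 12.43 and 12.89, 1.38-fold higher and within the limit. Akap9, the large scaffold of the centrosome and Golgi, was 1.78-fold higher at 8.40 and 9.23. Its mean level is under 9, where 17.1% of examined genes were higher by 1.5-fold. The last 166 bases of Akap9 overlap those of Cyp51 on the other strand, and Cyp51 was at 10.64 and 10.37, in the opposite direction.

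The nuclear anchors Akap8 (10.81 and 10.31) and Akap8l (11.42 and 10.85) were both lower with DF, 1.41-fold and 1.49-fold, without reaching the limit. Akap8l passed it only when differences were recentred by level (-0.60 log2 units). Akap2 was at 11.91 and 11.62, and its locus overlaps that of Pakap on the same strand, which was at 10.40 and 10.08. Akap11 was at 10.22 and 10.55, Akap12 at 9.71 and 9.82, and Akap13 at 8.80 and 8.51. Akap7, Akap14, Akap10 and Akap17b were below the floor, with differences from -0.54 to 0.30 log2 units. Akap6 was at 2.55 in the control and listed at 0 with DF, and Akap3 and Akap4 were at 0 in both.

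Rapgef3 (Epac1), an exchange factor that cAMP activates without PKA, was at 8.08 and 6.58, 2.83-fold lower, but below the floor in both libraries and so not counted. Rapgef4 (Epac2) was listed at 0 in both.

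CREB itself was at nearly equal levels, whereas Crem and the coactivator Crtc2 were lower with DF. Creb1 was at 10.90 and 10.80, and Atf2, the most abundant of the 4 factors, at 11.42 and 11.25. Crem, which encodes both activators and the inducible repressor ICER, was at 10.71 and 9.89, or 1678 and 951 on the linear scale, 1.76-fold lower. At a mean level of 10 to 12, 7.2% of 2193 genes were lower by 1.5-fold and 6.93% higher. Atf1 was at 9.23 and 9.75, 1.43-fold higher and within the limit. The ratio of Creb1 to Crem was 1.14 in the control and 1.87 with DF. A 3' end count does not separate the activator and repressor forms of Crem where they share an end.

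Crtc2, the coactivator that moves to the nucleus when cAMP rises, had the largest difference of all examined members. It stood at 8.62 (control) and 5.59 (DF), or 394 and 48.1 on the linear scale, 8.19-fold lower. It was examined only through its control value, and it dropped out when the floor was set on the mean of both libraries. At a mean level under 9, where Crtc2 lies, 16.9% of 1971 examined genes were lower by 1.5-fold. Crtc3 was at 6.89 and 5.89, 2.01-fold lower, and Crtc1 at 7.79 and 7.43; both were below the floor. The 3 genes summed to 735 and 280 on the linear scale, 2.62-fold lower with DF. The Crtc2 gene spans 90254163 to 90264125 of chromosome 3, plus strand, with no overlapping coding gene.

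The acetyltransferases went apart within the limit. Crebbp was at 8.81 and 8.34, 1.38-fold lower, and Ep300 at 8.98 and 9.50, 1.44-fold higher. Their sum was 953 and 1050, and the ratio of Ep300 to Crebbp was 1.12 in the control and 2.24 with DF.

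**Figure D3:**
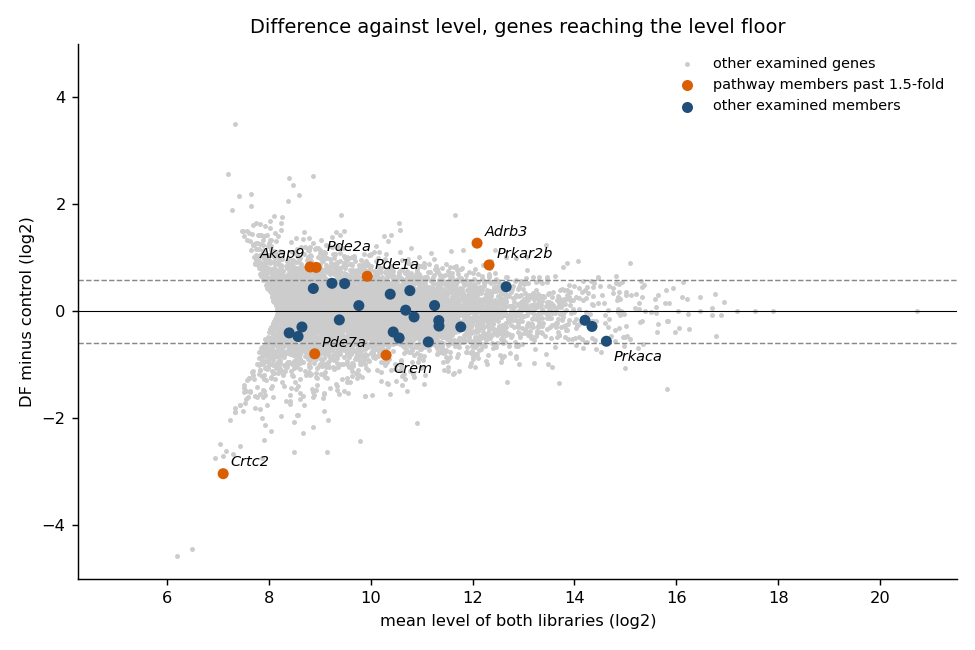
DF minus control (log2) against the mean level of both libraries for 6760 genes that reached the level floor and were above 0 in both (grey; 1 lies outside the drawn range), with members past 1.5-fold in orange, other examined members in blue and the 1.5-fold limits dashed. Adrb3 and Prkar2b stand out at a high level, where few genes differ by 1.5-fold, and Crtc2 lies at the low edge of the examined genes.

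Genes around the core pathway were read from 9 further lists under the same floor and limit, for which the background is again 10.2% higher and 10.9% lower. The lists share Sik1, Rgs2 and Atf3, and the list of CREB target genes also holds the members Crem, Pde4b and Pde4d. The lists are thus not independent of each other or of the members. Upstream, 0 of 14 examined G protein subunits differed by 1.5-fold in either direction, with a median of -0.13 log2 units. The most abundant were Gnb2 (14.22 and 14.50) and Gng12 (13.99 and 13.98), a beta and a gamma subunit. Of 24 alpha-adrenergic and other G protein-coupled receptors, most of which act through Gs or Gi, 4 were examined and 0 differed by 1.5-fold. The short-chain fatty acid receptor Ffar2 was at 12.87 and 12.86, and the lysophosphatidic acid receptor Lpar1 at 10.35 and 10.60. Among desensitisation and RGS genes 0 of 7 differed by 1.5-fold; Rgs2, a brake on G protein signalling, was at 13.38 and 13.39, and the receptor kinase gene Adrbk1 at 10.51 and 10.99. In the list of PKA inhibitor peptides and partners, 2 were examined, Pkig (10.78 and 11.20) and Gskip (7.78 and 8.19), and neither reached the limit.

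Among 17 examined kinases and phosphatases that act on CRTC or CREB, 2 were higher, 1 was lower, and the median was 0.06. Sik1, a kinase that keeps CRTC in the cytoplasm and is itself a CREB target, was 2.27-fold lower (9.41 and 8.23). Stk11 (LKB1), which activates the SIK kinases, was 1.59-fold higher (11.99 and 12.66), as was Camk1 (10.45 and 11.12), a calmodulin-dependent kinase. Ppp3ca, the calcineurin catalytic subunit, was at 12.69 and 12.64. Of 10 other ATF and CREB-like factors, Atf6, a sensor of the endoplasmic reticulum, was 1.61-fold lower (9.57 and 8.88) and 0 were higher. The most abundant, Atf5 (15.01 and 15.58) and Atf4 (14.95 and 15.26), stayed within the limit.

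Known CREB target genes went both ways. Of 17 examined, 2 were higher and 4 lower, and the median was 0.01 log2 units. Dusp1, a phosphatase of MAP kinases, was 2.09-fold higher (8.15 and 9.22) and was examined only through its DF value, and Id1, an inhibitor of helix-loop-helix factors, 1.60-fold higher (11.11 and 11.79). Lower were Cebpb (2.54-fold, 14.36 and 13.02), Sik1, Crem and the immediate early gene Ier2 (1.52-fold, 10.73 and 10.13). The next list holds genes of lipolysis, lipid droplets and fatty acid handling, not all of which PKA drives or which favour lipolysis. Of its 11 genes, 3 were higher, 0 were lower, and the median was 0.35. The higher ones were the glycerol channel Aqp7, the monoglyceride lipase Mgll and the lipid droplet protein Cidec (4.16-fold, 3.13-fold and 1.59-fold). Aqp7 (7.36 and 9.42) was examined only through its DF value. Cidec was at 14.475 and 15.145, Fabp4 at 16.67 and 16.73 and Pnpla2 at 16.32 and 16.58, values that compare ranks. Of 6 examined genes of the Rap branch, Rapgef1, an exchange factor that cAMP does not activate, was 2.03-fold lower (9.55 and 8.54) and 0 were higher. Rap1b was at 9.81 and 9.85 and Rap2c at 9.62 and 9.83.

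**Figure D4:**
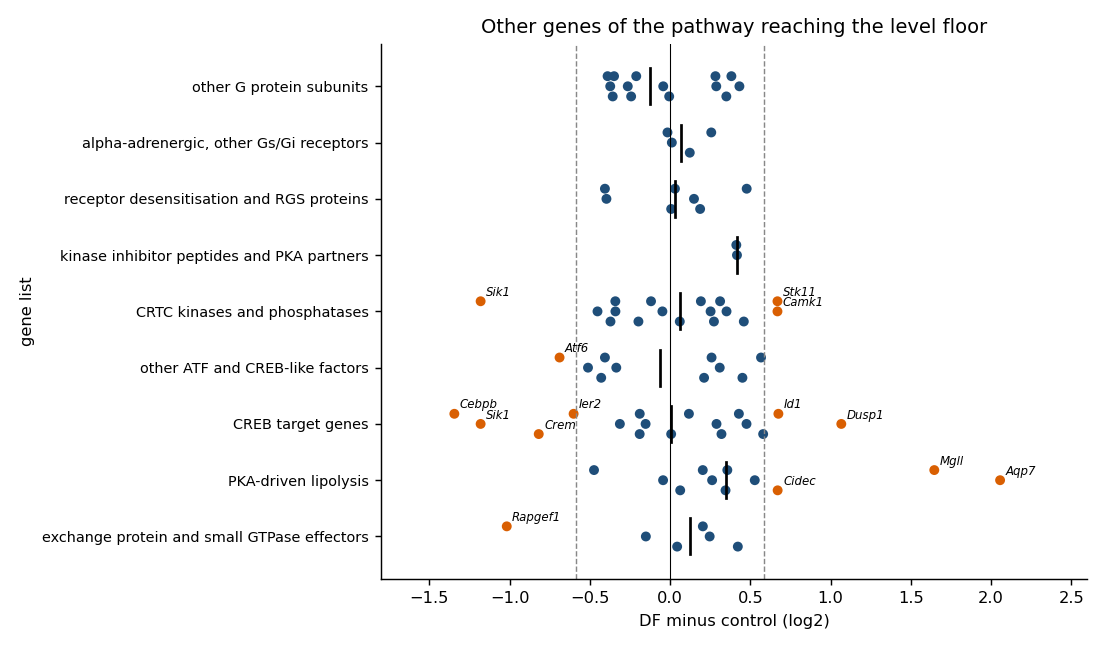
DF minus control (log2) for each examined gene of the 9 further lists (points; orange past 1.5-fold), with the list median as a black bar and the 1.5-fold limits dashed. Most genes lie between the limits, with Aqp7 and Mgll at the right and Cebpb and Sik1 at the left.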

How the data were processed

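Messenger RNA 3' ends of 1 control and 1 DF library were sequenced as single 75 nt reads from 500 ng of total RNA, per the labels' protocols. Bowtie2, edgeR and mm10 are named in the submitters' processing notes, and the sources used here do not state versions, counter, annotation, strand use or normalization. The deposited values are log2 values, per the file headers under a gene symbol and sample name only. Their sorted values nearly coincide between the files (the highest 140 are identical), as after quantile normalization, which hides differences in total output. Depth is unknown. Differences are DF minus control with no pseudocount; a linear value is 2 raised to the deposited value, with 0 kept as 0. Every member at the level floor is named, as are members listed at 0; of other lists, genes past 1.5-fold and the 2 most abundant. Members below the floor that are named individually and the overlapping genes were added after their values were seen. A member is not reported here. Members and lists were chosen with earlier results of these data known. Positions are GENCODE vM21 on GRCm38, the assembly mm10 names (69 of 69 members matched); promoters are RefSeq on GRCm38.p6. Python 3.11.15, numpy 2.4.6, pandas 2.3.3 and matplotlib 3.10.9 were used.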

Additional observations from a re-analysis of the deposited data

How the results depend on the processing

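No paired analysis was possible because each group holds 1 library, and for the same reason no library could be left out. The median difference of the members lay between -0.17 and -0.13 log2 units under the 7 alternatives run for it. Counts moved by more than 1.5-fold in these settings. With no floor, 6 of 43 members were higher and 5 lower (14.0% and 11.6%), against 18.3% and 15.9% of all genes, so the share of higher members was then below the background. With the floor at the upper quartile, 3 of 19 were higher and 1 lower (15.8% and 5.26%), against 7.76% and 8.71% of 3466 genes. With a fold limit of 2, 1 of 31 was higher and 1 lower (3.23% each), against 2.56% and 3.21%. In the other settings (floor on the mean, recentring, a pseudocount of 32, or leaving out the 2 examined members with a coding gene on the opposite strand) 4 or 5 were higher and 2 to 4 lower. Member shares there were 13.8% to 16.7% higher and 6.67% to 12.9% lower. Among all genes under the same settings, 8.65% to 10.2% were higher and 9.49% to 11.6% lower. Of 93 differences of single members recomputed under 3 alternatives, 92 kept their side of the limit and 0 changed sign among those past it. Without depth or replicates, low values such as those of Crtc2 with DF carry an unknown counting error.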

Other observations

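Several adrenergic and other G protein-coupled receptors were detected at low levels, below the level floor in both libraries, with differences in both directions; they were chosen after their values were seen. Among receptors coupled to Gs, Tshr, the thyrotropin receptor, stood at 6.07 (control) and 7.57 (DF), Mc2r, the corticotropin receptor, at 7.24 and 8.09, and the adenosine receptor Adora2b was listed at 0 in the control and at 4.18 with DF. The Gs-coupled Adora2a was at 0.32 in the control and listed at 0 with DF. Adora1, the adenosine receptor that restrains lipolysis, stood at 6.14 (control) and 3.52 (DF). Of the alpha-adrenergic receptors, Adra1b was at 3.92 and 2.64, Adra1d at 3.73 and 4.88, and Adra1a, Adra2a, Adra2b and Adra2c were listed at 0 in both. Ptger3, a prostaglandin E receptor coupled to Gi, was at 2.55 and listed at 0 with DF. CREB targets below the floor, also chosen after their values were seen, went both ways. Fos was at 6.39 and 4.73, Nr4a2 at 6.52 and 6.45, and Id2 at 5.48 and listed at 0 with DF. Atf3 was listed at 0 in the control and at 5.83 with DF.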
